A study of Mus musculus with 24 samples.

Results

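The genes described here encode regulators of pre-mRNA splicing and the kinases that act on them. They were picked by symbol from a polysome sequencing table of mouse genes: every gene named Srsf or Tra2, every Hnrnp gene, the CLK and SRPK kinases, the SR-related Srrm1, Srrm2, Son and Pnisr, and Luc7l, Luc7l2, Luc7l3 and Rbm39. The rule found 47 of 13504 genes, made up of 11 SR, 2 Tra2, 20 hnRNP, 4 CLK, 2 SRPK, 4 SR-related and 4 LUC7-like or Rbm39 genes. The families were taken up after earlier work on these data had shown high values of Srsf genes in the Rps26Tir1 line. The fold changes of that line are therefore given as a description, and its calls are no independent test of these genes.

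The cells were E14 mouse embryonic stem cells, an established line, whose RACK1 carried an auxin-inducible degron (AID). RACK1 is a scaffold protein of the small ribosomal subunit, and the degron lets the auxin indole-3-acetic acid (IAA) recruit the receptor TIR1 to the tagged protein for degradation. In the FreeTir1 control line (RACK1-AID/Free Tir1) the receptor was untethered, and in the Rps26Tir1 line (RACK1-AID/RPS26-Tir1, called Ribo-Tweezer) it was fused to the ribosomal protein RPS26. Both lines received IAA or DMSO for 12 h, and free, low-translation and heavy-translation fractions were sequenced, giving 24 libraries, 2 for each of 12 groups. Whether a line is 1 clone, or replicates separate cultures, is not given, so p-values may measure technical spread.

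SR proteins bind exonic enhancers through RNA recognition motifs and recruit the spliceosome through tails rich in arginine and serine, whereas hnRNP proteins coat nascent transcripts and often repress splice sites. SRPK kinases phosphorylate the tails mostly in the cytoplasm and CLK kinases in the nucleus, which sets where SR proteins reside and how they act. Many of these genes limit their own output through alternative exons or retained introns that send the transcript to nonsense-mediated decay or hold it in the nucleus.

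The values are the authors' own statistics per gene and line, with no values per library, so neither a level per fraction nor the read depth behind a gene is known. A log2 fold change here compares IAA with DMSO, but neither its numerator nor the fractions it covers is stated, so values are called positive or negative, and transcript amount cannot be told apart from ribosome loading. A gene is called when its deposited adjusted p is under 0.05, and standard errors (SE) were worked back from the p-values. The 10 stem cell markers looked for were all measured, at average expression from 7.32 to 10.8 on the log2 scale, by the authors' deposited table. Of 9 feeder fibroblast markers 4 were measured, from 0.15 for Col1a1 to 8.0 for Fn1 by the authors' deposited table, and Col1a1 was called in the Rps26Tir1 line; its part in the results below was not tested. The 6 primitive endoderm markers were between -0.32 and 4.66, and none was called. Neither Rack1 nor Rps26 was called in either line; the degron acts on protein, so mRNA values do not check the depletion.

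Of the 47 genes, 6 were called in the Rps26Tir1 line, all positive: Srsf2, Srsf3, Srsf5, Srsf7, Clk1 and Son. That is 12.8% of the members, beside 1.64% of all genes (1.10% positive and 0.541% negative), and since the choice of genes drew on this comparison nothing is read from the excess. In the FreeTir1 line no member and no gene of the table was called (0%). The promoters of the called genes are shown as a description. A call needs a value that is large beside its SE, so called genes with similar SEs tend to have similar values. Whether these genes share a control was not tested. RefSeq sequences on GRCm38.p6 were found for 42 members, and Clk1, Hnrnpll, Hnrnpul2, Luc7l and Pnisr have no entry. Each runs 5′ to 3′ from 250 bases before the start of transcription to 50 after it. Capitals mark matches, on either strand, to 6 motifs chosen with these sequences in view: the TATA box motif TATAA, the CCAAT box, the E box motif CACGTG, the motif TGACG of cyclic AMP response elements, the ETS motif CCGGAA and the NRF1 motif GCATGCGC.

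Srsf2, chr11:116853045-116853344, minus strand: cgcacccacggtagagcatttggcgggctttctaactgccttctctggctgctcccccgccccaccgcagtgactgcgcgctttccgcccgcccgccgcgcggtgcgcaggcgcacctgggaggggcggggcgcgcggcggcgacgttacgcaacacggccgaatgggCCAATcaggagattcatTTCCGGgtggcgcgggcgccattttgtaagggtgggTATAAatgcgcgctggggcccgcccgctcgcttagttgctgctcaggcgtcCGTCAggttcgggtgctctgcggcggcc

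Srsf3, chr17:29032410-29032709, plus strand: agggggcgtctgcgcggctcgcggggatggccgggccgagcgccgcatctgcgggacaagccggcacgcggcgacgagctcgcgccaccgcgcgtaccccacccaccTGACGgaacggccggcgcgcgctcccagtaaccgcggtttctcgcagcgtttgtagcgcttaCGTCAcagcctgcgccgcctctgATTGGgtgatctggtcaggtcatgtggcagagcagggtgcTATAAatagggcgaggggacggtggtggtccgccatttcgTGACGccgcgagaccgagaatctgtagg

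Srsf5, chr12:80945249-80945548, plus strand: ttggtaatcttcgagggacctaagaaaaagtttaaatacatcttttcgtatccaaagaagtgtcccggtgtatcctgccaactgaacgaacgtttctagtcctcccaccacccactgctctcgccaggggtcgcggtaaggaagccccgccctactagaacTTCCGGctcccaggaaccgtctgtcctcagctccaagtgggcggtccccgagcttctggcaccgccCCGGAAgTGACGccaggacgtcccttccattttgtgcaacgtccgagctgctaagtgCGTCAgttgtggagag

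Srsf7, chr17:80207256-80207555, minus strand: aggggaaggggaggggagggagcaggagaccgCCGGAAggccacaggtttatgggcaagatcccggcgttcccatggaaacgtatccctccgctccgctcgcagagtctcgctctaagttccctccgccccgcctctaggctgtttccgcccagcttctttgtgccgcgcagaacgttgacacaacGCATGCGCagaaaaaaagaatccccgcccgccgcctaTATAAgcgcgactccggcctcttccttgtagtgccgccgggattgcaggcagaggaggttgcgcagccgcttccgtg

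Son, chr16:91647574-91647873, plus strand: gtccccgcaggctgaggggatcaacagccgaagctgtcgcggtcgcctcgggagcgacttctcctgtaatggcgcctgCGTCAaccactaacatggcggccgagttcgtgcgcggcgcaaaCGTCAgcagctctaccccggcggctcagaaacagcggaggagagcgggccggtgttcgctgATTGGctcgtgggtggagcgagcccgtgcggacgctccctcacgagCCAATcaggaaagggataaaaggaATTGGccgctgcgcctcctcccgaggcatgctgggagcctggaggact

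The promoters of Srsf2, Srsf3 and Srsf7 held TATAA on the strand read, at 29, 18 and 27 bases before the start used for each window. For Srsf3 the GENCODE M21 gene begins at chr17:29032628, upstream of that start and of its TATAA match. The promoters of Srsf2, Srsf3 and Son held a CCAAT box. Son had 3 of them, at 68, 22 and -2 bases before the start used, so the last lies after it. GENCODE M21 begins the Son gene at chr16:91647506, upstream of the whole Son window, so these distances depend on the start chosen. The motif TGACG was in 4 of the 5 promoters. The shares over members and over the table count a gene when any of its listed promoters holds the motif. Counted so, TGACG was found for 25 of the 42 members with a sequence (59.5%) and for 34.1% of 10639 genes of the table. TATAA was in 9 of the 42 (21.4%), beside 16.1% of those genes, and CCAAT in 24 (57.1%), beside 43.1%. An E box was in none of the 5 and in 6 of the 42, 5 of them hnRNP genes, where 11.7% of the table's genes had it. CCGGAA was in 3 of the 5 and in 13 of the 42 (30.95%), beside 30.2%. GCATGCGC was in 1 of the 5, that of Srsf7, and in 5 of the 42 (11.9%), beside 5.90%. No matches of different motifs overlapped in these 5 windows. A match describes letters and is not evidence of binding.

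The SR family split into 4 called genes and 7 with smaller values in the Rps26Tir1 line. Srsf7, an SR protein with a zinc knuckle, had a log2 fold change of 0.49 (adjusted p 0.0252) by the authors' deposited table, which is a ratio of 1.41. Its SE was 0.114, and its value in the FreeTir1 line by the authors' deposited table was 0.21 (adjusted p 0.727). Srsf2 (SC35), a marker of nuclear speckles that activates exon inclusion, stood at 0.49 (adjusted p 0.0312), and at 0.16 (adjusted p 0.850) in the FreeTir1 line by the authors' deposited table. Its SE was 0.120 in each line. The 2 genes had nearly the same value in the Rps26Tir1 line, closer than either SE.

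Srsf5, which shares its pair of RNA recognition motifs with Srsf4 and Srsf6, stood at 0.48 (adjusted p 0.0438) for Rps26Tir1 by the authors' deposited table. In the FreeTir1 line it stood at 0.07 (adjusted p 0.959) by the authors' deposited table, the lowest FreeTir1 value of the 6 called genes, and its SE was 0.125 in each line. The call of Srsf5 ended, at adjusted p = 0.0541, when the adjustment covered only genes whose average expression reached 3; over the alternatives it ranged from 0.0412 to 0.0541. Srsf3, the shortest SR protein of the set at 164 codons and a factor that also aids mRNA export, had 0.44 (adjusted p 0.0289) by the authors' deposited table. Its FreeTir1 value by the authors' deposited table was 0.16 (adjusted p 0.803), with SEs of 0.104 in each line. The 4 called SR genes thus lay between 0.44 and 0.49 in the Rps26Tir1 line, and between 0.07 and 0.21 in the FreeTir1 line.

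The other SR genes stayed within 0.21 of 0 for Rps26Tir1 by the authors' deposited table, with adjusted p from 0.599 to 0.929. Srsf11, whose protein binds the large U2AF subunit, and Srsf10, a regulator that represses splicing when dephosphorylated, had 0.13 each, and Srsf4 had 0.09 by the authors' deposited table. Srsf1, the founding member known as ASF/SF2, stood at 0.07, Srsf6 at 0.05 and Srsf9 at -0.03 for Rps26Tir1 by the authors' deposited table. Srsf12 had the most negative value of the SR genes, -0.21 by the authors' deposited table, with an SE of 0.331 and an average expression of -0.41, the only member below 3 on that scale. In the FreeTir1 line, by the authors' deposited table, these 7 genes ran from -0.13 for Srsf11 to 0.40 for Srsf12, whose SE there was 0.476. Srsf4, Srsf5 and Srsf6, close relatives, thus had 0.09, 0.48 and 0.05 in the Rps26Tir1 line. Differences between members of a family were not tested, because their errors come from the same libraries and how they vary together is not known.

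**Figure D1:**
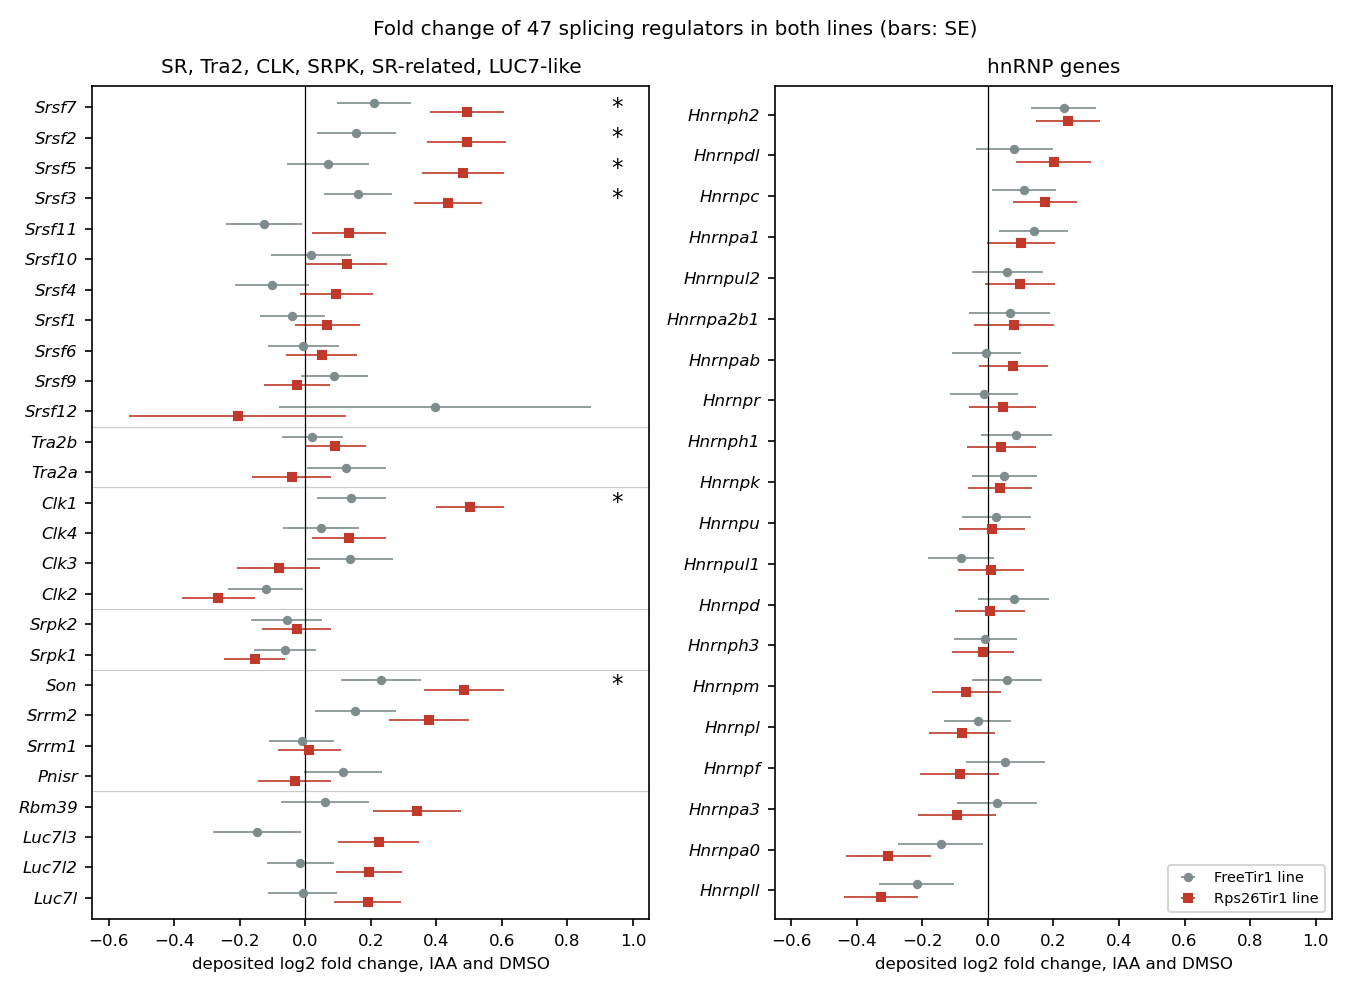
Deposited log2 fold change of each of the 47 genes in the FreeTir1 line (grey circles) and the Rps26Tir1 line (red squares), with bars of 1 SE worked back from the p-values; families are separated by lines and an asterisk marks adjusted p under 0.05 in the Rps26Tir1 line. The 6 called genes lie between 0.44 and 0.50 in the Rps26Tir1 line, and the hnRNP genes between -0.33 and 0.24.

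Tra2a and Tra2b encode SR-like activators that bind GAA-rich enhancers, and neither was called. In the Rps26Tir1 line, by the authors' deposited table, Tra2a stood at -0.04 and Tra2b at 0.09, with adjusted p of 0.903 and 0.671. Their FreeTir1 values by the authors' deposited table were 0.13 and 0.02. SEs of this pair lay between 0.0932 and 0.121.

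Among the kinases, Clk1 was called and the others were not. Clk1, a nuclear kinase that releases SR proteins from speckles and lies on the minus strand at chr1:58410189-58424066 (GRCm38), had the largest value of all 47 genes in the Rps26Tir1 line, a log2 fold change of 0.50 (adjusted p 0.0133) by the authors' deposited table. Its SE was 0.105, its ratio 1.42, and it ranked 42 among all genes by the p-value of that line. The FreeTir1 value of Clk1 was 0.14 (adjusted p 0.846) by the authors' deposited table. Clk4, the closest paralogue of Clk1, stood at 0.13 (adjusted p 0.597) for Rps26Tir1 by the authors' deposited table, and at 0.05 in the FreeTir1 line. Clk2 had the opposite sign, -0.27 with unadjusted p = 0.0234 and adjusted p = 0.214 by the authors' deposited table, and -0.12 in the FreeTir1 line. Clk3 stood at -0.08 for Rps26Tir1 and 0.14 for FreeTir1 by the authors' deposited table. The CLK family thus held the highest of the 47 values beside one of the lower ones, with a median of 0.03.

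The cytoplasmic SR kinases had small negative values in each line. Srpk1 stood at -0.15 (adjusted p 0.424) for Rps26Tir1 and -0.06 for FreeTir1 by the authors' deposited table. Srpk2 stood at -0.03 (adjusted p 0.932) and at -0.06 in the same order by the authors' deposited table. Neither value exceeded 2 SEs, which were 0.0932 and 0.106 in the Rps26Tir1 line.

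Of the SR-related genes, the pair that encodes large speckle proteins had positive values. Son, a scaffold of nuclear speckles needed for splicing of weak introns, stood at 0.48 (adjusted p 0.0375) for Rps26Tir1 by the authors' deposited table. Its SE was 0.121, and in the FreeTir1 line it had the largest value of the called genes, 0.23 (adjusted p 0.711) by the authors' deposited table. The call of Son ended with the trend in transcript length, GC content and expression removed, at adjusted p = 0.13 with a remaining value of 0.37; over the alternatives it ranged from 0.0393 to 0.13. The Son transcript is 8399 bases long, against a median of 2881.5 bases for all genes. Srrm2, the other main speckle scaffold, stood at 0.38 with unadjusted p = 0.00432 and adjusted p = 0.101 by the authors' deposited table, and at 0.15 in the FreeTir1 line. Its transcript, at 8564 bases, is the longest of the 47, and with the same trend removed its Rps26Tir1 value was 0.27 (adjusted p 0.294). Srrm1, a splicing coactivator that binds the exon junction complex, stood at 0.01 in the Rps26Tir1 line and Pnisr at -0.03 by the authors' deposited table. The FreeTir1 values of these 2 were -0.01 and 0.12 by the authors' deposited table.

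The LUC7-like proteins are partners of the U1 snRNP, which recognises the 5' splice site, and Rbm39 is a relative of the large U2AF subunit. All 4 had positive values in the Rps26Tir1 line and none was called. Rbm39 led with 0.34, unadjusted p = 0.0168 and adjusted p = 0.183 by the authors' deposited table, with an SE of 0.134. Luc7l3 stood at 0.22, Luc7l2 at 0.19 and Luc7l at 0.19, with adjusted p from 0.343 to 0.375 by the authors' deposited table. In the FreeTir1 line, by the authors' deposited table, the same genes had -0.15, -0.02 and -0.01, and Rbm39 had 0.06. The median of the 4 was 0.21 for Rps26Tir1 and -0.01 for FreeTir1, where the medians of all genes were 0.01 and 0.00.

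None of the 20 hnRNP genes was called in either line. Their median was 0.02 for Rps26Tir1 and 0.05 for FreeTir1, and 13 of the 20 were positive in each. At an unadjusted p under 0.05, 3 hnRNP genes of the Rps26Tir1 line stood out, 1 positive and 2 negative, which is 15% of the family beside 16.3% of all genes. Hnrnpll, an RNA-binding regulator known from lymphocyte CD45 splicing, had the most negative value of the 47 genes, -0.33 with unadjusted p = 0.00701 and adjusted p = 0.126 by the authors' deposited table. Its FreeTir1 value by the authors' deposited table was -0.22. Hnrnpa0, a gene without introns, stood at -0.30 with unadjusted p = 0.0263 and adjusted p = 0.225 in the Rps26Tir1 line and at -0.14 in the FreeTir1 line by the authors' deposited table. Hnrnph2, which binds G-rich elements, stood at 0.24 with unadjusted p = 0.0181 and adjusted p = 0.189 by the authors' deposited table. Its FreeTir1 value, 0.23 with unadjusted p = 0.0283 and adjusted p = 0.633 by the authors' deposited table, made it the 1 member of 47 under 0.05 in that line, where 6.69% of all genes were (2.72% positive and 3.98% negative).

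The remaining hnRNP genes lay between -0.09 and 0.20 for Rps26Tir1. In the Rps26Tir1 line, by the authors' deposited table, Hnrnpa1, Hnrnpa2b1 and Hnrnpa3, which package nascent transcripts, had 0.10, 0.08 and -0.09. Hnrnpc, which binds uridine tracts, had 0.17 and Hnrnpdl 0.20 in the same column by the authors' deposited table, at adjusted p-values of 0.371 and 0.396. Hnrnpk and Hnrnpu, a poly(C)-binding and a scaffold-attachment protein, had 0.04 and 0.01 by the authors' deposited table. Hnrnpl, the paralogue of Hnrnpll, stood at -0.08, Hnrnpf at -0.09 and Hnrnpm at -0.07 by the authors' deposited table. Hnrnpab, Hnrnpd, Hnrnph1, Hnrnph3, Hnrnpr, Hnrnpul1 and Hnrnpul2 lay between -0.01 and 0.10 for Rps26Tir1 by the authors' deposited table. The family's SEs ranged from 0.0948 to 0.13 in that line, so most of these values were smaller than 1 SE.

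**Figure D2:**
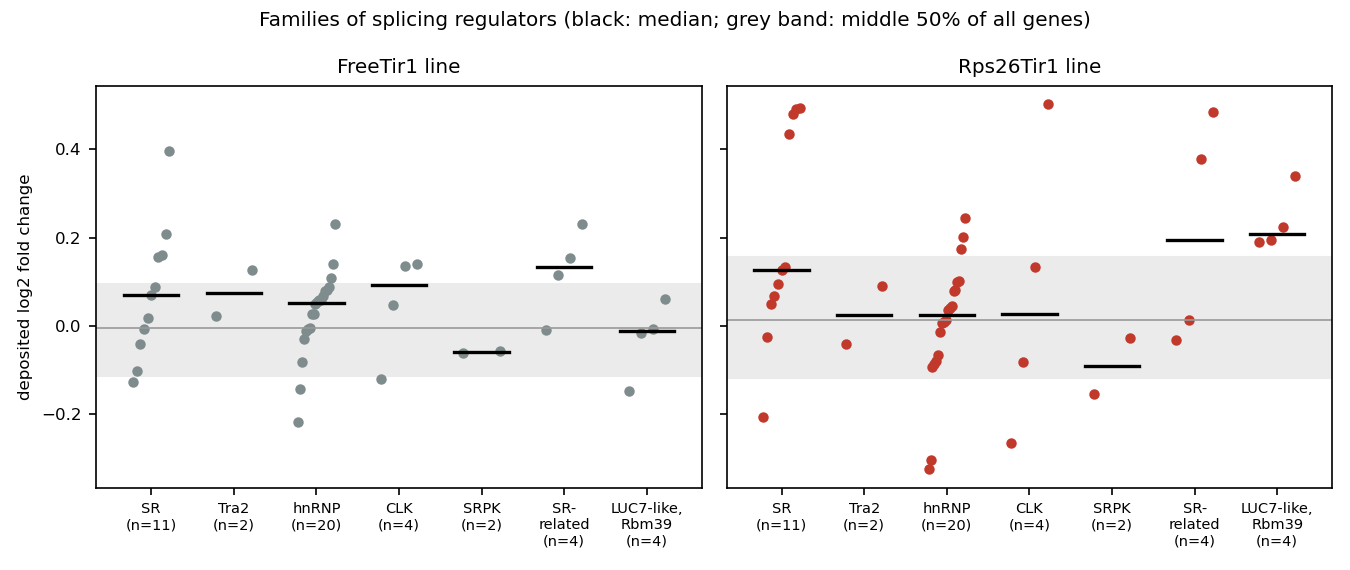
Deposited log2 fold change of each member by family in the FreeTir1 line (left) and the Rps26Tir1 line (right); black bars are family medians, the grey line is the median and the band the middle 50% of all 13504 genes. The medians in the Rps26Tir1 line run from -0.09 for the SRPK pair to 0.21 for the LUC7-like genes and Rbm39.

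Set side by side, the families had medians in the Rps26Tir1 line of 0.13 for SR, 0.20 for SR-related, 0.21 for LUC7-like and Rbm39, 0.03 for CLK, 0.02 for Tra2 and hnRNP each, and -0.09 for SRPK genes. In the FreeTir1 line the same medians were 0.07, 0.13, -0.01, 0.09, 0.07, 0.05 and -0.06. All genes had 52.98% positive values in the Rps26Tir1 line, against 32 of 47 members, and 48.6% in the FreeTir1 line, against 29 of 47. At an unadjusted p under 0.05 the Rps26Tir1 line held 12 members (25.5%), beside 16.3% of all genes. Of the 12, 9 were positive and 3 negative, where 9.55% and 6.72% of all genes were. The 6 called genes were positive in both lines, as were 21 members altogether. A further 7 members were negative in both lines, 11 were negative in the FreeTir1 line and positive in the Rps26Tir1 line, and 8 had the reverse signs. The sign was thus the same in both lines for 28 of the 47 members (59.6%), beside 62.2% of all genes. Pearson r between the lines over the 47 members was 0.43 and Spearman rho 0.39, beside a Spearman rho of 0.27 over all genes. These values describe genes measured in common libraries.

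Whether a member differed between the lines was asked by subtracting its FreeTir1 from its Rps26Tir1 value, with errors of the lines taken as independent. The Rps26Tir1 values that drew attention to these genes enter this difference and push it upward for them, so its sign, size and p-values are a description too. The difference of the 6 called genes had a median of 0.31, and no member passed at an adjusted p under 0.05, where 0.00741% of all genes did. Clk1 had the smallest adjusted p among the members, 0.644, with a difference of 0.36 (SE 0.149) and a 95% interval from 0.06 to 0.67. Srsf5 had the most positive difference, 0.41 (SE 0.176), with an interval from 0.05 to 0.77 and adjusted p = 0.669. These were the 2 members with an unadjusted p under 0.05, at 0.0216 and 0.0269 and both positive, beside 6.18% of all genes (4.15% positive and 2.03% negative). For Srsf2 the difference was 0.34 with an interval from -0.01 to 0.68, and for Luc7l3 it was 0.37 with an interval from -0.00488 to 0.75. For Srsf7 and Srsf3 the differences were 0.28 and 0.27, with intervals from -0.04 to 0.61 and from -0.03 to 0.58. For Son it was 0.25, from -0.10 to 0.61. Intervals this wide hold values near 0 as well as differences above 0.5, so a missed threshold does not show equal values. Among hnRNP genes the difference was positive for 8 of 20 with a median of -0.01, among SR genes for 9 of 11 with a median of 0.20, and among all genes for 54.1% with a median of 0.02. Since SR genes were taken up for their Rps26Tir1 values, the gap between these families restates that choice.

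**Figure D3:**
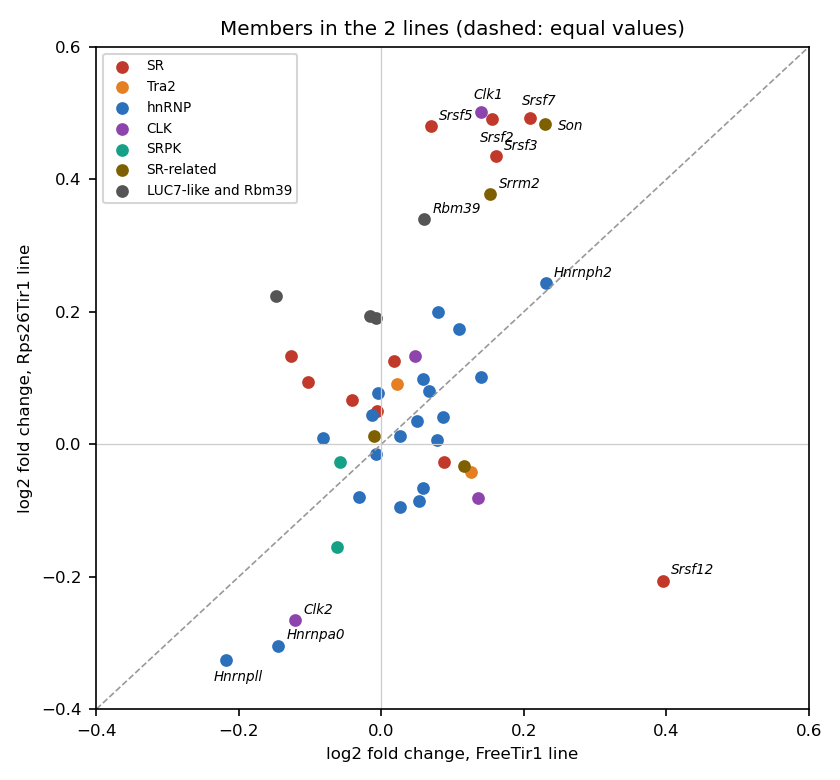
Deposited log2 fold change in the FreeTir1 line (x) and the Rps26Tir1 line (y) for the 47 genes, coloured by family, with names for members at an unadjusted p under 0.05 in the Rps26Tir1 line and for Srsf12; the dashed line marks equal values. Clk1, Son and the 4 called SR genes lie above the dashed line, and Hnrnph2 lies close to it with 0.23 and 0.24.

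Features of the transcripts that the choice of genes did not use were taken from GENCODE M21. Serine codons next to arginine codons, the signature of RS tails, numbered from 4.05 per 100 codons in Srsf9 to 23.5 in Srsf2 among SR genes. hnRNP genes had 0.274 to 2.64 and all genes a median of 0.785 per 100 codons. Over the 47 members Spearman rho between this density and the fold change was 0.44 for Rps26Tir1 and 0.18 for FreeTir1, where over all genes it was 0.04 and 0.05 in the same order. These are descriptions across genes of common libraries. The SR families are defined in part by such tails and were taken up for their Rps26Tir1 values, so the value of 0.44 restates the choice of genes. Srsf6 and Srsf4, at 21.8 and 21.6 pairs per 100 codons, had 0.05 and 0.09 for Rps26Tir1 by the authors' deposited table. Clk1 and Son, with 3.11 and 3.72 pairs per 100 codons, were called.

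**Figure D4:**
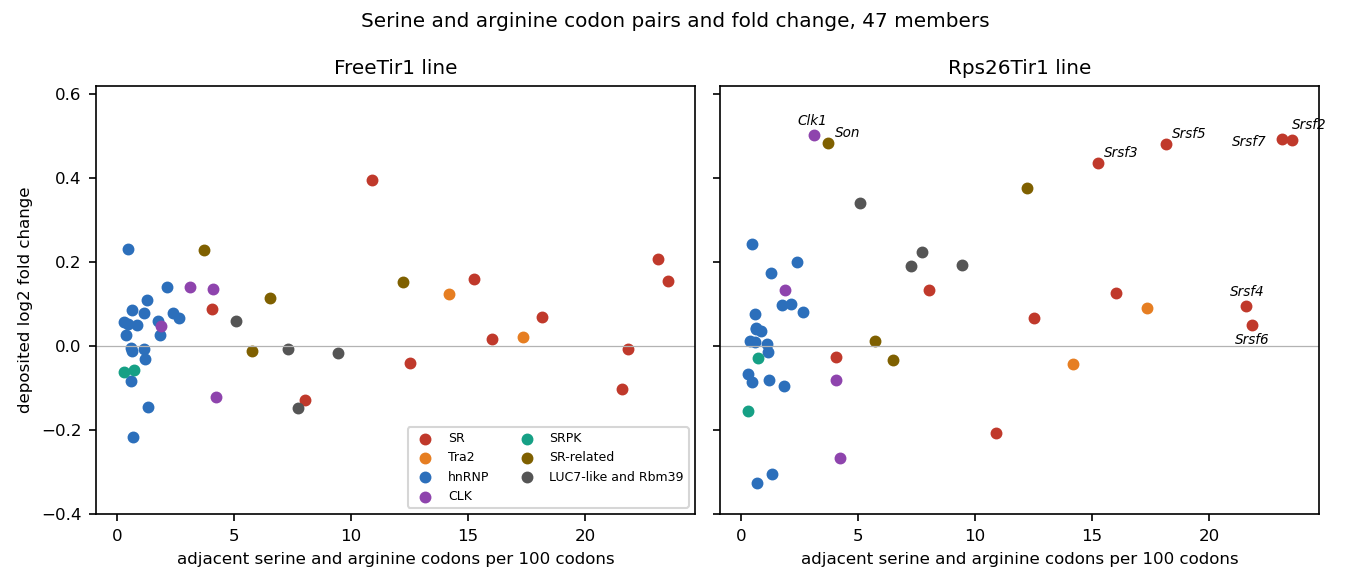
Adjacent serine and arginine codons per 100 codons of the coding sequence (x) against the deposited log2 fold change (y) of the 47 genes in the FreeTir1 line (left) and the Rps26Tir1 line (right), coloured by family. hnRNP genes lie at densities of 2.64 or less, and the 4 called SR genes lie between 15.2 and 23.5.

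Annotated isoforms that end in nonsense-mediated decay were listed for 35 of the 47 genes (74.5%), beside 27.6% of all genes and 31.6% of those with average expression of at least 3. The hnRNP genes had such an isoform in 10 of 20 cases and the other members in 25 of 27, the 6 called genes included. Members also had more annotated transcripts, a median of 10 against 5 for all genes. The fold changes are per gene and do not say which isoform was read. GC content of the member transcripts had a median of 44.9%, beside 50.98% of all genes, and over the members Spearman rho between GC content and the fold change was -0.34 for Rps26Tir1 and -0.18 for FreeTir1, where over all genes it was -0.07 and -0.03. With the number of decay isoforms it was 0.40 for Rps26Tir1 and -0.02 for FreeTir1, and 0.01 over all genes for each. With transcript length it was -0.01 for Rps26Tir1 and -0.20 for FreeTir1, where over all genes it was 0.21 and 0.15. The choice of genes by their Rps26Tir1 values bears on these figures as well.

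Reads of some members could be divided among similar genes. Other genes' transcripts hold 97.7% of the 31-base stretches of Hnrnpa3, 56.2% of those of Hnrnpf and 48.3% of those of Hnrnpa1. Among the called genes these shares were 37.6% for Srsf3, 36.7% for Srsf5, 3.76% for Srsf7, 0.226% for Clk1, and none for Srsf2 and Son, so the values of Srsf3 and Srsf5 are less certain on this count. Without strand information reads of antisense neighbours cannot be separated either. Exons of Mfsd11 and Mettl23 cover 39.4% of the Srsf2 transcript from the other strand, and for Rps26Tir1 by the authors' deposited table these had -0.20 and 0.11, with adjusted p of 0.453 and 0.717. Exons of the antisense neighbour of Srsf4 cover 67.9% of its transcript, and those of Donson 1.23% of Son; Donson stood at -0.34 (adjusted p 0.0865) by the authors' deposited table.

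The rest of the splicing machinery was compared through 8 lists of 103 genes, all measured. In the Rps26Tir1 line 1 of the 103 was called (0.971%, beside 1.64% of all genes), in the FreeTir1 line none (0% of all genes), and the medians were 0.04 and 0.03, beside 0.01 and 0.00 over all genes. The called gene was Prpf8, the large protein at the heart of the spliceosome, at 0.47 (adjusted p 0.0417) for Rps26Tir1 and 0.20 for FreeTir1 by the authors' deposited table. At an unadjusted p under 0.05, 14 of the 103 (13.6%) were found in the Rps26Tir1 line, 11 positive and 3 negative, which is below the 16.3% of all genes (9.55% positive and 6.72% negative). None of the 103 was found for FreeTir1, beside 6.69% of all genes. Sm and snRNP proteins had 12 of 18 positive with a median of 0.04. Here and below, the genes named are those with the smallest p-value in each direction, for this list Snrnp40 at -0.19 and Snrnp200 at 0.18 by the authors' deposited table. The SF3A and SF3B list had a median of 0.02 over 10 genes, with Sf3b3 at 0.22 and Phf5a at -0.04 by the authors' deposited table. The PRPF and tri-snRNP list had a median of 0.05 over 16 genes, with Prpf19 at -0.24 by the authors' deposited table. Exon junction and export factors had 9 of 14 positive with a median of 0.05, with Casc3 at -0.28 and Acin1 at 0.25 by the authors' deposited table.

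Branch point recognition genes had 3 of 7 positive and a median of 0.00, with Puf60 at -0.28 and U2af1l4 at 0.22 by the authors' deposited table. Other alternative splicing regulators had 15 of 25 positive and a median of 0.03, with Rbm5 at 0.25 and Tial1 at -0.23 by the authors' deposited table. Kinases and phosphatases of SR proteins had 3 of 7 positive and a median of -0.09, with Dyrk1a at 0.21 and Ppp1r8 at -0.18 by the authors' deposited table. The cyclins L and K and their kinases, which phosphorylate RNA polymerase II and splicing factors, were positive in 6 of 6 cases for Rps26Tir1 (median 0.19) and in 2 of 6 for FreeTir1 (median -0.04). Ccnl1, whose cyclin has an RS tail of its own, had the smallest p-value of the 6 and stood at 0.45 (adjusted p 0.0826) there and at 0.17 for FreeTir1 by the authors' deposited table. For none of the 103 genes did the difference between the lines reach an unadjusted p under 0.05, and its adjusted p lay between 0.862 and 0.9998.

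**Figure D5:**
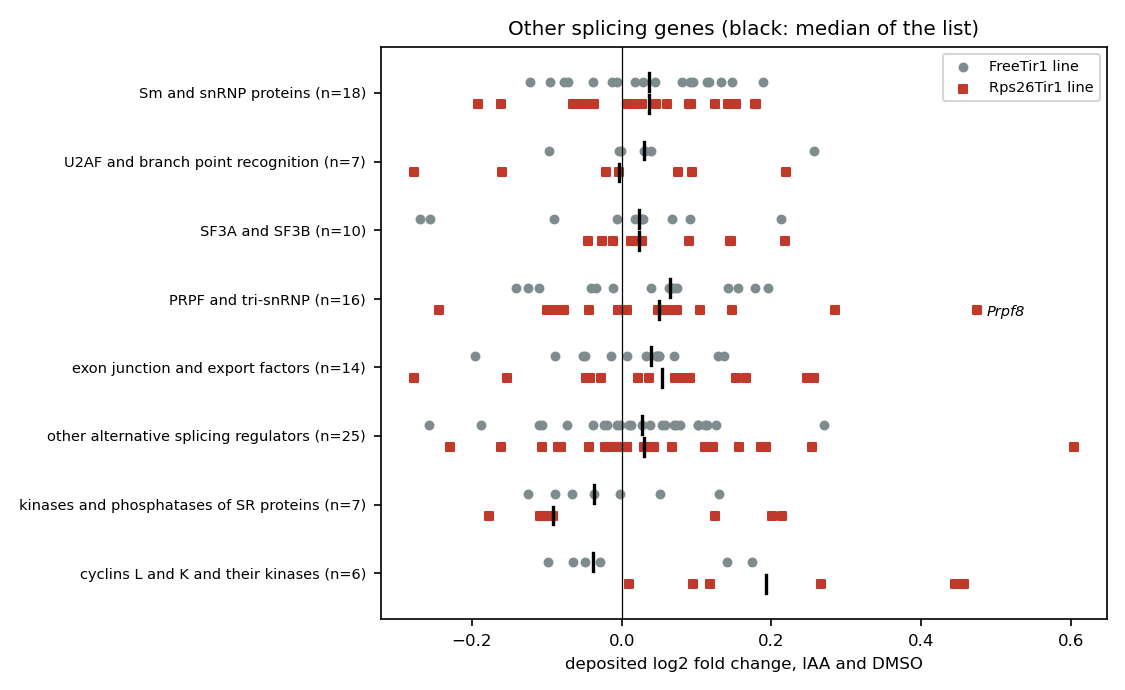
Deposited log2 fold change of 103 other splicing genes in 8 lists, in the FreeTir1 line (grey circles) and the Rps26Tir1 line (red squares), with the median of each list in black. Prpf8 is named as the gene called in the Rps26Tir1 line, at 0.47, and the cyclin list has a median of 0.19 in that line.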

How the data were processed

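Per the labels, polyadenylated RNA of 24 fraction libraries was extracted with Trizol and made into paired-end TruSeq libraries. Not given in the sources used here: aligner, counting method, strandedness, genome build and model. The deposited table gives, per the file headers, a log fold change and an average expression, read as log2 because the columns are named as in limma although no base is stated. It also holds the authors' p-value and adjusted p-value per line, which correspond to 15864 tested genes, of which 13504 are listed. A last deposited column labels genes significant in the Rps26 line.

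The planned tests per library were not run, since no values per library were used; the deposited statistics took their place. SEs are fold change over the t-value of the p-value at 29 degrees of freedom, the number between 8 and 60 at which the SE ratio of the lines varied least. How the authors' model treated the 3 fractions of a replicate is not given. If they counted as separate observations, the SEs and intervals given here may be too narrow. The difference between lines used the root of the summed squared SEs, two-sided, and was adjusted by Benjamini-Hochberg across all 13504 genes. The procedure was also run on simulated libraries fitted with limma 3.58.1 in R 4.3.3, in which the fractions were independent. It missed most differences of 0.5 that were put in, so it can overlook differences of the size seen for the called genes. Transcript features came from the transcript each row names in GENCODE M21 (GRCm38), with Python 3.11.15. Alternatives were average expression of at least 3, adjustment over the listed genes, leaving out genes with over 50% of 31-base stretches shared, removal of a spline trend on length, GC content and expression, and 20 degrees of freedom.

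Every member is named. Fold changes in both lines are given for members at an unadjusted p under 0.05 in either line and for family extremes, with SEs and differences for some of them. Of the other lists, called genes and those with the smallest p in each direction are named. Members and lists were chosen with earlier results of these data known.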

Additional observations from a re-analysis of the deposited data

How the results depend on the processing

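The count of 6 called members in the Rps26Tir1 line became 5 with average expression of at least 3 and with the trend removed, and stayed 6 with adjustment over the listed genes and without genes of over 50% shared sequence. The count in the FreeTir1 line and that of the difference between the lines were 0 under each alternative run. In the FreeTir1 line the number of members at an unadjusted p under 0.05 was 2 instead of 1 with the trend removed. Family medians moved by less than the median SE of their family under each alternative. Of the alternative values of single members 184 kept their side of the threshold and 2 did not, those of Srsf5 and Son. Most of the 184 are values that were not called to begin with, so they say little about the 6 calls. Of those 6 calls, 2 ended under an alternative. No paired analysis was possible because the table holds no values per library; for the same reason no replicate could be left out. The depth behind each gene is unknown, and SEs near 0.1 leave differences between the lines of about 0.3 within their intervals.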

Other observations

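Genes outside the 47 whose coding sequence holds at least 5 adjacent serine and arginine codons per 100 codons numbered 35, a limit set after these densities were seen. Positive values numbered 28 of 35 in the Rps26Tir1 line (median 0.09), beside 52.98% of all genes, and 25 in the FreeTir1 line (median 0.04), beside 48.6%. The difference between the lines was positive for 21 of the 35 (60%), beside 54.1% of all genes, with medians of 0.04 and 0.02. It reached an unadjusted p under 0.05 for none of the 35, beside 6.18% of all genes. No gene of the 35 was called in either line, where 1.64% of all genes were in Rps26Tir1 and 0% in FreeTir1, and the smallest adjusted p was 0.0826. At an unadjusted p under 0.05 there were 7 in the Rps26Tir1 line, all positive, which is 20% beside 16.3% of all genes (9.55% positive), and none in the FreeTir1 line, beside 6.69% of all genes. Besides Ccnl1 these were Bclaf1, a splicing and transcription factor, at 0.35, Ppig, an SR cyclophilin, at 0.24, and the cold-inducible RNA-binding gene Rbm3 at 0.22 in the authors' deposited table. Ccnl2 at 0.27, Topors, a ubiquitin and SUMO ligase, at 0.23 and the neural splicing activator Srrm4 at 0.60 completed them in the authors' deposited table, the last at an average expression of 1.13. Their adjusted p in the authors' deposited table ran from 0.0826 to 0.27.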
